A study of Drosophila melanogaster with 8 samples.

Results

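Within each of 2 fly genotypes, PA36 and PR36, the 2 replicate libraries stood far apart in their heat shock genes, and the genes that moved with them in both genotypes are described here. Replicate 1 of PA36 and replicate 1 of PR36 were chosen because their heat shock genes were high, and replicate 2 of each genotype because they were low, so 4 of the 7 libraries with a named column are contrasted, paired by genotype. The libraries were chosen by their measured levels of Hsp70Aa, Hsp26 and Hsp68. Every gene difference between these libraries is therefore given as a description, with no test.

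RNA was sequenced from heads of 5-day-old female Drosophila melanogaster in which the pan-neuronal driver Elav, carried by all groups, directed 1 of 4 transgenes. PR36 encodes a repeat of proline and arginine, and PA36 encodes a repeat of proline and alanine and is the control in the labels. For reference only, values are also given for (G4C2)36, the GGGGCC repeat of C9orf72-linked disease, with 2 libraries, and for UPF1 RNAi, which targets a helicase of nonsense-mediated mRNA decay, with 1 library. The second UPF1 RNAi library is not analysed here. Flies were kept at 24 °C and 60% humidity, with no heat treatment in the labels, and each genotype's pair of replicates came from 40 heads in total. Elav acts in neurons, whereas a head also holds glia, pigment cells, fat body, muscle and blood cells. A level per head therefore does not say in which cells a gene was read. In such RNA, fewer cells of a type and less RNA per cell cannot be told apart.

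The heat shock response is a transcriptional programme controlled by the heat shock factor Hsf, which becomes active when proteins misfold and binds the promoters of chaperone genes. In flies its best known targets are the 6 intron-less copies of Hsp70, the related Hsp68, the small heat shock proteins of the 67B cluster, the Hsp90 chaperone Hsp83 and the long non-coding RNA Hsromega. Constitutive relatives of these chaperones, such as Hsc70-4, serve protein folding in unstressed cells.

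The deposited values are TPM, a transcript's share of reads per unit of its length, on a scale common to all libraries, and gene values are sums over transcripts. Summed over all listed transcripts, libraries held between 712972 and 877933 TPM, and between 9113 and 9345 genes reached 1 TPM. Differences are replicate 1 minus replicate 2 of a genotype in log2(TPM + 1), over the 9287 genes that averaged 1 TPM or more, and folds are plain ratios of TPM. A gene counts as moved when both pairs differ by at least 2-fold (1 on the log2 scale) in the same direction. Over all genes the median difference was -0.15 in PA36 and -0.15 in PR36, so a typical gene read slightly lower in replicate 1. Photoreceptor genes, a mark of head tissue, summed to 50444 TPM in PA36 replicate 1 and 46326 TPM in PR36 replicate 1, against 52724 TPM in PA36 replicate 2 and 54195 TPM in PR36 replicate 2. Upf1, the target of the RNAi, had 11.3 TPM in UPF1 RNAi, inside the span of the 6 other libraries (10.3 to 19.6 TPM).

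The inducible Hsp70 genes separated the libraries most. Hsp70Aa (3R, 11954163 to 11956544), which encodes the main stress-induced folding chaperone, stood at 1448 TPM in PA36 replicate 1 and 2020 TPM in PR36 replicate 1, against 4.93 TPM in PA36 replicate 2 and 6.77 TPM in PR36 replicate 2. The (G4C2)36 pair had 153 and 155 TPM, and the UPF1 RNAi library 14.6 TPM. Both replicate 1 libraries lay above all others, at 294 times replicate 2 in PA36 and 298 times in PR36, and both (G4C2)36 libraries lay between the high and the low ones. Its neighbour and near-identical copy Hsp70Ab (3R, 11958535 to 11960909) stood at 1563 TPM in PA36 replicate 1 and 2129 TPM in PR36 replicate 1, against 5.63 and 7.59 TPM in replicate 2 of PA36 and of PR36. The (G4C2)36 pair had 180 and 167 TPM, and UPF1 RNAi 16.4 TPM. How reads were divided between these copies is uncertain, so their sum is the safer value. Together they held 3011 TPM in PA36 replicate 1 and 4149 TPM in PR36 replicate 1, against 10.6 TPM in PA36 replicate 2 and 14.4 TPM in PR36 replicate 2, ratios of 285 and 289.

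The 4 copies at the second Hsp70 locus, 87C, were lower in level and less alike. Hsp70Ba had 56.3 TPM in PA36 replicate 1 and 54.6 TPM in PR36 replicate 1, against 0.318 TPM in PA36 replicate 2 and 0.140 TPM in PR36 replicate 2. Hsp70Bbb had 38.6 and 37.6 TPM in replicate 1 of PA36 and of PR36, against 0.720 and 0.462 TPM in replicate 2. Hsp70Bb had 28.7 TPM in PA36 replicate 1 and 97.7 TPM in PR36 replicate 1, against 2.44 TPM in PA36 replicate 2 and 0.857 TPM in PR36 replicate 2. All 3 were higher in both replicate 1 libraries without overlap, as were 6.86% of all genes tested. Hsp70Bb had the widest gap between its pair differences (3.11 in PA36 and 5.73 in PR36) of any moved heat shock gene. The last copy, Hsp70Bc, did not follow, with 0.178 and 0.424 TPM in replicate 1 of PA36 and of PR36, against 0.907 and 1.02 TPM in replicate 2, and 8.30 and 1.25 TPM in (G4C2)36. Reads of near-identical copies can be assigned to any of them, and all 6 copies together had 3134 TPM in PA36 replicate 1 and 4339 TPM in PR36 replicate 1, against 14.95 TPM in PA36 replicate 2 and 16.8 TPM in PR36 replicate 2. Hsp68 (3R, 24055080 to 24057310), a stress-induced member of the same family at another locus, had 433 TPM in PA36 replicate 1 and 505 TPM in PR36 replicate 1, against 6.62 TPM in PA36 replicate 2 and 9.25 TPM in PR36 replicate 2. With (G4C2)36 at 29.6 and 27.3 TPM and UPF1 RNAi at 13.5 TPM, these lay again between the 2 states. Of the 7 genes in this list, 6 were higher by 2-fold in both pairs, with a list median of 5.44 in PA36 and 5.62 in PR36. Over all genes tested 61 were higher in both pairs, 0.657%, and since the choice of libraries used this contrast, nothing is read from that difference.

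**Figure D1:**
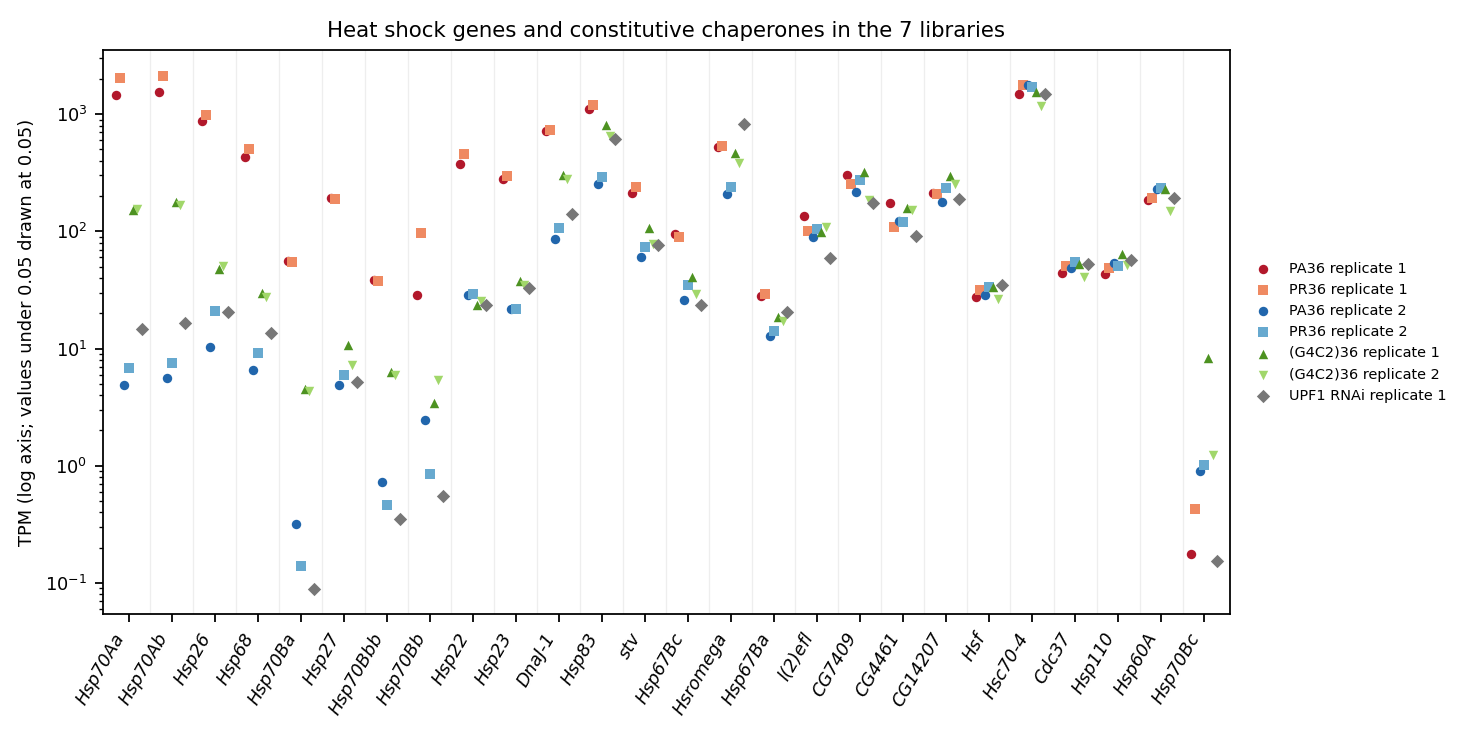
TPM (log axis) of heat shock genes and of constitutive chaperones in the 7 libraries, with 1 symbol per library and genes ordered by the size of their difference. PA36 replicate 1 and PR36 replicate 1 lie above their own replicate 2 for the genes at the left, from Hsp70Aa (1448 and 2020 against 4.93 and 6.77 TPM) to Hsromega, and the symbols run together for genes such as Hsc70-4 and Hsf.

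Small heat shock proteins, which hold misfolding proteins in solution, formed the second group. Hsp26 had 871 TPM in PA36 replicate 1 and 976 TPM in PR36 replicate 1, against 10.2 TPM in PA36 replicate 2 and 20.9 TPM in PR36 replicate 2. The (G4C2)36 pair had 47.4 and 50.4 TPM, and UPF1 RNAi 20.5 TPM. The ratio within PA36 was 85.1 and within PR36 46.8. Hsp27, a small heat shock protein of cytosol and nucleus, had 193 and 188 TPM in replicate 1 of PA36 and of PR36, against 4.86 and 5.94 TPM in replicate 2. Hsp23 had 278 and 295 TPM in replicate 1 of PA36 and of PR36, against 21.9 and 21.8 TPM in replicate 2. Hsp22, the mitochondrial member, had 377 TPM in PA36 replicate 1 and 458 TPM in PR36 replicate 1, against 28.8 TPM in PA36 replicate 2 and 29.2 TPM in PR36 replicate 2. For these 4 genes the high libraries lay above the low ones without overlap, as they did for 6.86% of all genes tested. The place of (G4C2)36 differed between the 4. Hsp26 and Hsp27 in (G4C2)36 lay above both low libraries, the second with 10.7 and 7.27 TPM, and Hsp22 lay below them, with 23.4 and 25.3 TPM. Hsp67Bc, a small heat shock protein linked to autophagy, showed a smaller difference, with 94.1 and 90.0 TPM in replicate 1 of PA36 and of PR36, against 25.7 and 35.2 TPM in replicate 2.

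Hsp67Ba, a relative in the same cluster, lay just outside the 2-fold rule, with differences of 1.08 in PA36 and 0.98 in PR36. Its levels were 28.1 and 28.9 TPM in replicate 1 of PA36 and of PR36, against 12.8 and 14.2 TPM in replicate 2. Hsromega lay just inside, with 1.32 and 1.15. In all, 5 of the 10 small heat shock genes tested were higher in both pairs, with a list median of 1.46 in PA36 and 1.15 in PR36. The 5 others were Hsp67Ba, l(2)efl, CG14207, CG7409 and CG4461, and the last 4 differed by between -0.16 and 0.60 in either pair. l(2)efl, the fly crystallin relative, had 135 and 100 TPM in replicate 1 of PA36 and of PR36, against 88.8 and 105 TPM in replicate 2. CG4456, also called Hsp67Bb, and CG13133 were under the filter on low values, the first with 2.45 TPM in PA36 replicate 1, 0.592 TPM in PR36 replicate 1 and a listing at 0 in the 5 others.

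The 67B cluster spans 3L from 9371511 (Hsp67Bc) to 9386463 (the pseudogene CR43482), and within it the size of the difference varied from gene to gene. CG4461 (9375430 to 9376293), a small heat shock gene as well, lies between Hsp22 and Hsp26 (9376418 to 9377427). It read 175 and 108 TPM in replicate 1 of PA36 and of PR36, against 122 and 121 TPM in replicate 2, while the ratio for Hsp22 beside it was 13.1 in PA36 and 15.7 in PR36. At the other end, CR43482 starts 418 bases past Hsp27 and is 1 of the genes outside the lists that moved. It had 35.0 and 31.5 TPM in replicate 1 of PA36 and of PR36, against 0.721 and 1.45 TPM in replicate 2. CR43483, a pseudogene between Hsp27 and CR43482 that overlaps the end of Hsp27 on the opposite strand, had 10.2 and 8.39 TPM in replicate 1, against 7.40 and 12.2 TPM in replicate 2. The next gene, CG4080, did not separate either, with 19.4 and 20.2 TPM against 19.8 and 22.3 TPM.

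**Figure D2:**
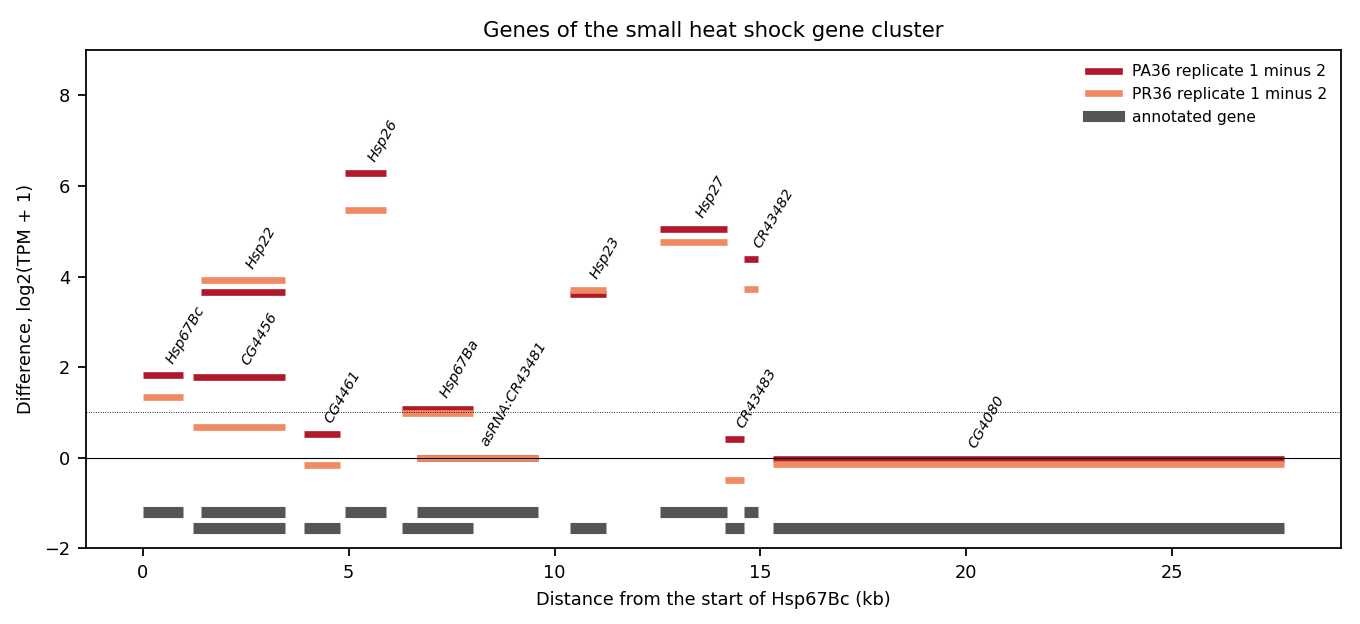
The 67B cluster, with distance in kb from the start of Hsp67Bc on the horizontal axis and the log2(TPM + 1) difference of each gene on the vertical axis, as 1 bar for PA36 and 1 for PR36, while the grey boxes below only mark where genes lie. Hsp26 (6.28 and 5.48), Hsp27 (5.05 and 4.77) and CR43482 (4.39 and 3.73) stand high, and CG4461 (0.52 and -0.16) stands near 0 between Hsp22 and Hsp26.

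Beside the other heat shock loci, 1 gene passed 2-fold in both pairs. At 87A the flanking genes CG31211 and CG3281 differed by -0.22 and 0.17 in PA36 and by -0.11 and -0.13 in PR36, although CG3281 overlaps the end of Hsp70Ab. At 87C the flanking genes CG5608 and Octbeta3R differed by -0.32 and 1.015 in PA36 and by -0.59 and -0.49 in PR36. The gene that moved was CG6000, whose end overlaps the end of Hsp68 on the opposite strand. It had 25.1 and 21.6 TPM in replicate 1 of PA36 and of PR36, against 2.97 and 9.63 TPM in replicate 2. Its levels of 48.0 and 33.2 TPM in the (G4C2)36 pair and 25.8 TPM with UPF1 RNAi did not follow Hsp68. Whether reads were counted by strand is not given in the sources used here, so reads of overlapping genes cannot be told apart. CR43482 and CG6000 were the 2 genes, of 105 moved outside the heat shock lists, that lay within 10000 bases of a moved heat shock gene.

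Among Hsf, Hsp90, Hsc70 and their co-chaperones, 4 of 26 genes tested were higher in both pairs and 1 was lower. Hsp83, the Hsp90 chaperone of the cytosol, had 1115 TPM in PA36 replicate 1 and 1199 TPM in PR36 replicate 1, against 256 TPM in PA36 replicate 2 and 289 TPM in PR36 replicate 2. Its 812 and 655 TPM in the (G4C2)36 pair and 617 TPM with UPF1 RNAi lay between the high and the low libraries. DnaJ-1, the Hsp40 partner that stimulates Hsp70, had 720 and 737 TPM in replicate 1 of PA36 and of PR36, against 85.8 and 107 TPM in replicate 2, and 304 and 278 TPM in (G4C2)36. The nucleotide exchange factor stv (starvin, a BAG-domain partner of Hsp70) had 214 and 239 TPM in replicate 1, against 60.2 and 73.6 TPM in replicate 2. The long non-coding RNA Hsromega had 522 and 535 TPM in replicate 1, against 209 and 240 TPM in replicate 2. UPF1 RNAi, at 819 TPM, held more Hsromega than either high library, and no other moved heat shock gene was that high there.

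Starvin and Hsromega differed between their own transcripts. The 3 transcripts of stv that start at 13480444 to 13480448 on 3L summed to 145 and 146 TPM in replicate 1 of PA36 and of PR36, against 11.1 and 12.0 TPM in replicate 2, ratios of 13.1 and 12.2. The 3 that start upstream, at 13477541, summed to 69.0 and 93.1 TPM in replicate 1, against 49.1 and 61.5 TPM in replicate 2, ratios of 1.41 and 1.51. The internal start site therefore carried most of the gene's difference, in both genotypes. For Hsromega, the unspliced transcript of 1888 bases had 421 and 393 TPM in replicate 1 of PA36 and of PR36, against 75.6 and 85.6 TPM in replicate 2. The spliced transcript of 1176 bases has the same start. It had 54.3 and 135 TPM in replicate 1, against 133 and 67.4 TPM in replicate 2. Another spliced transcript, of 1670 bases, starts upstream at 21296127 and has the same end. Its levels were 34.3 and 0.101 TPM in replicate 1, against 0.0207 and 86.6 TPM in replicate 2. Within each genotype these 2 spliced transcripts differed in opposite directions. Reads that both share can be assigned to either, so nothing is read from their separate levels. The 644 TPM of the transcript of 1176 bases made up most of Hsromega in UPF1 RNAi. Levels of single transcripts are estimates from shared reads. For Hsp23 the share given to each of 2 overlapping single-exon transcripts flipped between libraries. For Hsp26 the transcript of 958 bases had 427 TPM in PA36 replicate 1 and 8.17 TPM in PR36 replicate 1. It was listed at 0 in replicate 2 of both genotypes.

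Most other chaperones did not move. Hsf itself had 27.5 and 31.7 TPM in replicate 1 of PA36 and of PR36, against 28.5 and 33.4 TPM in replicate 2. Hsc70-4, the main constitutive Hsp70 relative, had 1494 and 1762 TPM in replicate 1, against 1793 and 1695 TPM in replicate 2, and the mitochondrial chaperonin Hsp60A had 185 and 192 TPM against 231 and 235 TPM. The sides overlapped for Hsc70-4, and Hsp60A was lower in both replicate 1 libraries, by -0.32 in PA36 and -0.30 in PR36, short of the 2-fold rule. Of the 21 tested members of this list that did not move, all had PR36 differences between -0.51 and 0.32 and PA36 differences between -0.32 and 1.13. The 1.13 belonged to Hsc70-1 (12.6 TPM in PA36 replicate 1, against 5.25 TPM in PA36 replicate 2), which stood at 11.5 TPM in PR36 replicate 1, against 12.0 TPM in PR36 replicate 2. HIP, an Hsp70-interacting co-chaperone, was the member that was lower. It was listed at 0 in PA36 replicate 1 and had 4.77 TPM in PR36 replicate 1, against 14.5 TPM in PA36 replicate 2 and 30.9 TPM in PR36 replicate 2. Its close relative and neighbour HIP-R had 41.3 and 44.3 TPM in replicate 1, against 31.4 and 43.2 TPM in replicate 2, and how reads divide between the pair is uncertain.

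Of 46 members of the 3 heat shock lists found in the table, 43 passed the filter on low values, 15 were higher in both pairs and 1 was lower. The other 27 included 25 past 2-fold in neither pair. The 15 covered a wide range of size, from 2.50-fold (Hsromega) to 294-fold (Hsp70Aa) in PA36 and from 2.23-fold (Hsromega) to 391-fold (Hsp70Ba, against a low side of 0.140 TPM) in PR36. For 13 of them the PA36 and PR36 differences lay within 0.5 of each other on the log2 scale, with a median gap of 0.20. The 15 were picked for passing 2-fold the same way in both pairs, which favours such likeness, so nothing is read from it. PR36 replicate 1 stood above PA36 replicate 1 for 11 of the 15. PR36 replicate 2 stood above PA36 replicate 2 for 11 as well. Together the 15 took 1.04% of listed TPM in PA36 replicate 1 and 1.28% in PR36 replicate 1, against 0.0966% in PA36 replicate 2 and 0.103% in PR36 replicate 2. The share was 0.254% and 0.248% in (G4C2)36 and 0.253% in UPF1 RNAi. Both (G4C2)36 libraries lay below both high libraries for all 15 and above both low libraries for 13. UPF1 RNAi lay above both low libraries for 8 and below both high libraries for 14. The 15 were picked for standing apart between the high and the low libraries, which favours a place between them for any other library. The same counts over all genes were not made, so nothing is read from these.

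**Figure D3:**
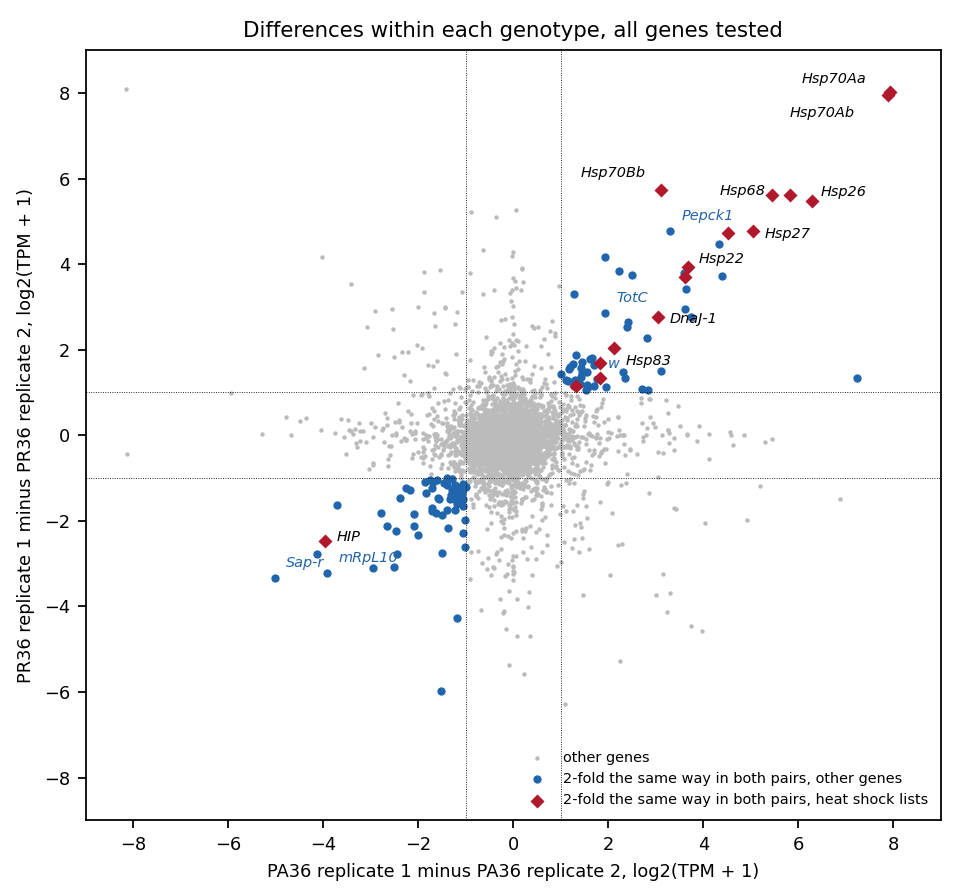
Difference between replicate 1 and replicate 2 in log2(TPM + 1), with PA36 on the horizontal axis, PR36 on the vertical axis and 1 point for each of the 9287 genes. Red diamonds are moved genes of the heat shock lists, which run along the diagonal up to Hsp70Aa (7.93 and 8.02) apart from HIP at the lower left, blue points are the 105 other moved genes, and grey points are all others.

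Outside the heat shock genes, the differences of the pairs were nearly uncorrelated. Across the 9287 genes, which are not independent replicates, the Pearson correlation of the PA36 and PR36 differences was 0.0975, and across the 9244 genes outside the heat shock lists it was 0.00833. In PA36 alone 307 genes (3.31%) were higher by 2-fold and 371 (3.99%) lower, and in PR36 alone 246 (2.65%) were higher and 357 (3.84%) lower. The (G4C2)36 pair, whose Hsp70Aa levels were 153 and 155 TPM, differed by 2-fold in 576 genes (6.2%), against 678 (7.3%) in PA36 and 603 (6.49%) in PR36. The count was somewhat lower in this 1 pair with near-equal Hsp70Aa, though not all of its heat shock genes were equal (Hsp70Bc had 8.30 and 1.25 TPM). It includes a median difference of 0.34 within (G4C2)36, which was not taken out. A link between such counts and heat shock level was not tested. In both pairs together, 61 genes were higher, 60 (0.646%) were lower, and 86 (0.926%) moved in opposite directions, 48 (0.517%) higher in PA36 and lower in PR36 and 38 (0.409%) the other way round. After median-of-ratios rescaling, which takes out the median difference, 71 were higher and 43 lower, and 88 were opposite. Without the heat shock lists, 46 were higher and 59 lower, 105 in the same direction beside the 86 in opposite directions.

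At the largest folds most of the higher genes were heat shock genes. The libraries were chosen by heat shock gene levels, so nothing is read from that lead. At 8-fold in both pairs, 10 heat shock genes and 5 others were higher, 2 were lower and 8 were opposite. At 16-fold, 7 heat shock genes and 1 other were higher, 0 were lower and 2 were opposite. The other gene at 16-fold was mir-4949, annotated within ATPsynC on the same strand, with 21.4 and 24.1 TPM in replicate 1 of PA36 and of PR36, against 0.111 and 0.134 TPM in replicate 2. It had 0.127 and 11 TPM in the (G4C2)36 pair, so it also differed there, where the 15 heat shock genes that were higher in both pairs lay within 2-fold once the median was taken out. ATPsynC itself had 1968 and 2025 TPM in replicate 1, against 1837 and 2317 TPM in replicate 2.

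**Figure D4:**
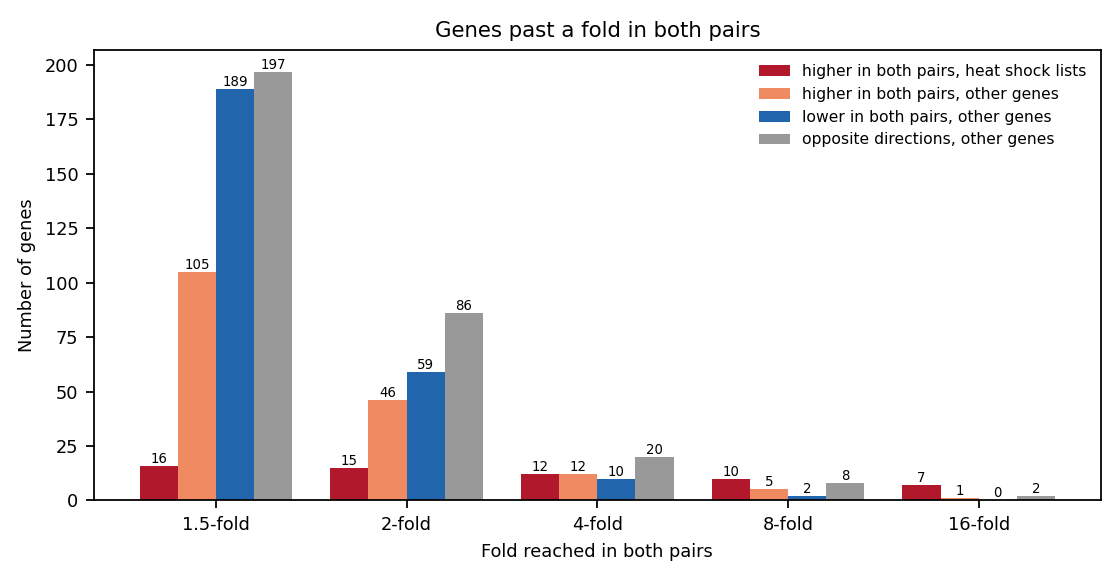
Number of genes (vertical axis, from 0) past each fold in both pairs, by direction and by whether they belong to the heat shock lists. At 2-fold 46 genes outside the lists are higher, 59 are lower and 86 moved in opposite directions (48 and 38 in each), and at 16-fold 7 of the 8 higher genes are heat shock genes.

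The moved genes outside the lists were less steady than the heat shock genes. All 15 higher heat shock genes lay within 2-fold between the (G4C2)36 libraries, once that pair's median was taken out. Of the 46 others that were higher, 26 did (56.5%), as did 47 of the 59 that were lower (79.7%), against 94.4% of all genes tested. The median level over the 4 libraries was 223 TPM for the 15 and 18.2 TPM for all genes tested. It was 7.85 TPM for the 46 and for the 59. Genes of like level were not compared, so steadiness is not read as a trait of either set. Of the 46, 15.2% were listed at 0 in at least 1 of the 4 libraries, against 2.58% of all genes, and 32.6% had a single exon, against 11.4%. Among the 15 heat shock genes 10 had a single exon. The (G4C2)36 libraries averaged at least 2-fold above UPF1 RNAi in 8 of the 15 heat shock genes, 12 of the 46 and 459 of all genes (4.94%), a contrast in which heat shock level and genotype cannot be told apart. Among the 46, 10 were 2-fold lower there, against 3.17% of all genes.

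Pepck1 and sugarbabe, genes of sugar metabolism, were among the higher genes outside the heat shock lists. Pepck1 (2R, 18536767 to 18539416), which commits to glucose synthesis, had 112 TPM in PA36 replicate 1 and 149 TPM in PR36 replicate 1, against 10.4 TPM in PA36 replicate 2 and 4.50 TPM in PR36 replicate 2. The (G4C2)36 pair had 12.97 and 19.8 TPM, and UPF1 RNAi 27.9 TPM, so the high libraries stood alone. It shares its locus with CG45087, at 615 and 675 TPM in replicate 1 of PA36 and of PR36, against 708 and 409 TPM in replicate 2, and the 2 cannot be told apart with certainty. sugarbabe (sug), a sugar-sensing transcription factor, had 281 and 219 TPM in replicate 1, against 105 and 95.6 TPM in replicate 2, with 187 and 141 TPM in the (G4C2)36 pair and 71.2 TPM with UPF1 RNAi. These 2 were the moved members of the 14 starvation and insulin signalling genes tested, beside 0.657% of all genes higher in both pairs. The list medians were 0.00060 in PA36 and 0.19 in PR36, so the list is not read as moved as a whole.

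TotC, a secreted Turandot stress peptide, had 188 TPM in PA36 replicate 1 and 329 TPM in PR36 replicate 1, against 48.6 TPM in PA36 replicate 2 and 44.7 TPM in PR36 replicate 2. It was as high in (G4C2)36, at 315 and 255 TPM. Among the 8 Turandot and JAK-STAT genes tested TotC moved in both pairs, and TotA, TotM and TotX passed 2-fold in PR36 alone. TotA had 353 TPM in PA36 replicate 1 and 807 TPM in PR36 replicate 1, against 224 TPM in PA36 replicate 2 and 169 TPM in PR36 replicate 2.

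The eye pigment transporter gene white (w) had 104 and 94.8 TPM in replicate 1 of PA36 and of PR36, against 29.99 and 37.6 TPM in replicate 2, and 58.5 and 39.1 TPM in (G4C2)36. Many fly transgenes carry a copy of white as their marker, and the table does not separate such a copy from the native gene. It was the moved member of 8 eye pigment cell genes tested, and its transport partner st had 7.76 and 11.03 TPM in replicate 1 of PA36 and of PR36, against 4.17 and 6.65 TPM in replicate 2. CG9837 had 57.4 and 30.7 TPM in replicate 1, against 3.77 and 3.11 TPM in replicate 2, with 4.22 and 2.68 TPM in (G4C2)36. CG6429 had 32.0 and 31.0 TPM in replicate 1, against 1.46 and 3.72 TPM in replicate 2, but 32.4 and 21.3 TPM in (G4C2)36. CG9837 in (G4C2)36 thus lay at the level of the low libraries, although Hsp70Aa there lay above them, and CG6429 in (G4C2)36 was about as high as in the high libraries. Cdc50 (49.8 and 47.0 TPM in replicate 1, against 3.09 and 3.48 TPM in replicate 2) and cindr (42.7 and 60.8 TPM against 6.77 and 3.602 TPM) separated the states. Both also split the (G4C2)36 pair, Cdc50 at 6.91 and 47.1 TPM and cindr at 1.68 and 39.5 TPM. CG10469, CG43093, CASK and OtopLa, which complete the 12 leading higher genes, likewise lay over 2-fold apart within (G4C2)36.

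**Figure D5:**
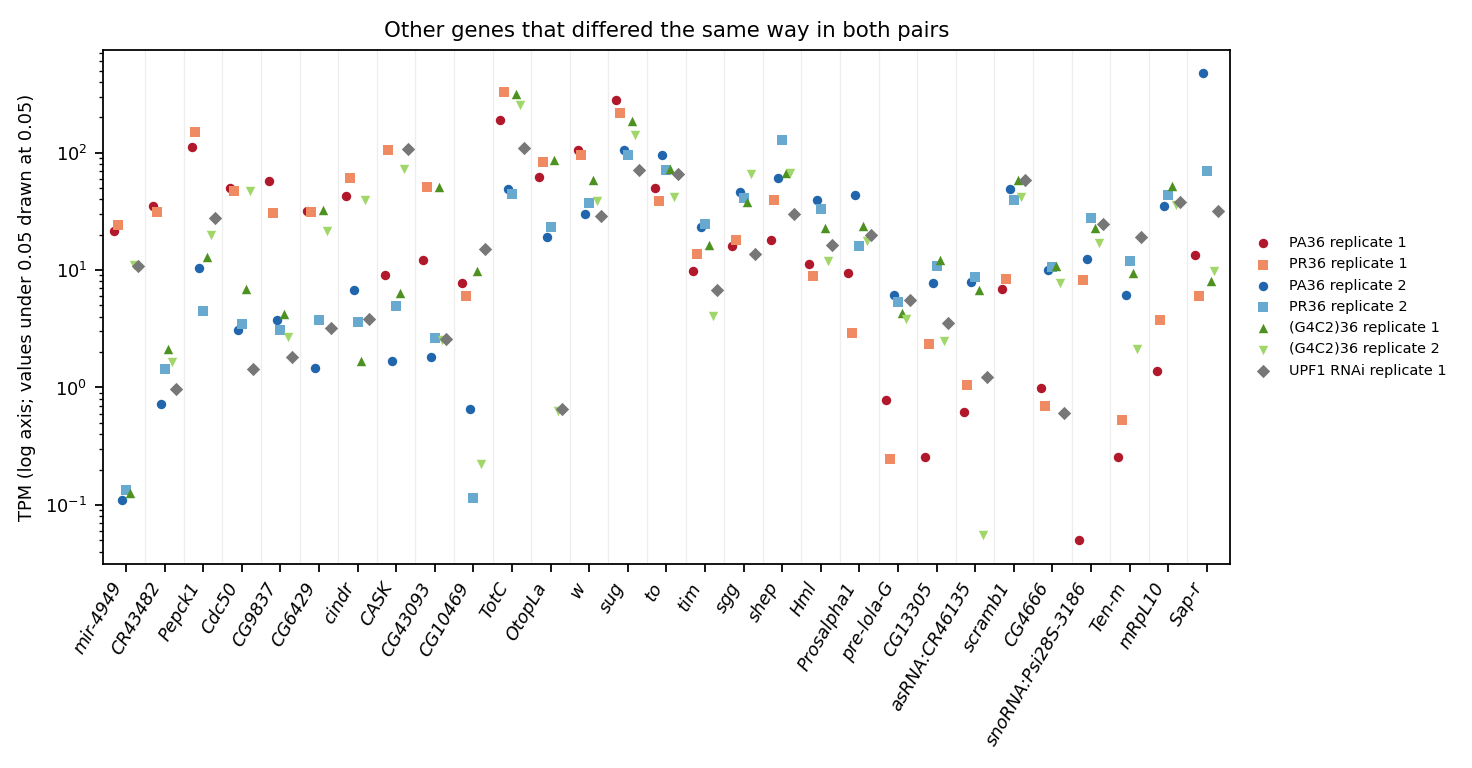
TPM (log axis) in the 7 libraries of the leading genes outside the heat shock lists, with clock, pigment and sugar-response members, and 1 symbol per library. Pepck1, CG9837, w and sug are higher in both replicate 1 libraries and mRpL10, scramb1 and Hml are lower, while the 2 (G4C2)36 symbols lie far apart for Cdc50, cindr, CASK and OtopLa.

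Lower genes were led by single genes of separate functions. Sap-r, the precursor of lysosomal saposins, had 13.5 TPM in PA36 replicate 1 and 6.02 TPM in PR36 replicate 1, against 472 TPM in PA36 replicate 2 and 69.5 TPM in PR36 replicate 2. Beside 8.04 and 9.74 TPM in the (G4C2)36 pair and 31.9 TPM with UPF1 RNAi, the low heat shock libraries, above all PA36 replicate 2, stood apart. The mitochondrial ribosomal protein gene mRpL10 had 1.39 and 3.77 TPM in replicate 1 of PA36 and of PR36, against 35.1 and 43.3 TPM in replicate 2, with 51.8 and 36.1 TPM in the (G4C2)36 pair and 37.8 TPM with UPF1 RNAi. The phospholipid scramblase gene scramb1 had 6.96 and 8.42 TPM in replicate 1, against 49.2 and 39.8 TPM in replicate 2, with 59.0 and 41.7 TPM in (G4C2)36. For both genes the reference libraries lay at the level of replicate 2. Prosalpha1, a subunit of the 20S proteasome core, had 9.40 TPM in PA36 replicate 1 and 2.90 TPM in PR36 replicate 1, against 43.2 TPM in PA36 replicate 2 and 15.9 TPM in PR36 replicate 2. The gene phr, which overlaps it on the opposite strand, had 2.54 and 1.37 TPM in replicate 1, against 8.25 and 9.70 TPM in replicate 2. Prosalpha1 was the moved member of 32 proteasome genes tested, with list medians of -0.13 in PA36 and -0.26 in PR36 beside -0.15 and -0.15 over all genes. Ten-m, CG4666, pre-lola-G, CG13305, shep, the antisense RNA CR46135 and the snoRNA Psi28S-3186 complete the leading lower genes with Hml.

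Hml, which encodes hemolectin, a clotting protein of blood cells, had 11.4 TPM in PA36 replicate 1 and 8.98 TPM in PR36 replicate 1, against 39.6 TPM in PA36 replicate 2 and 33.1 TPM in PR36 replicate 2. It had 22.7 and 11.8 TPM in the (G4C2)36 pair and 16.4 TPM with UPF1 RNAi. Of 9 blood cell markers tested 1 moved, Hml, 7 were below 0 in both pairs, and the list median was -0.35 in PA36 and -0.37 in PR36. Over all 9287 genes tested, 4675 were below 0 in both pairs and 0.646% were lower by 2-fold in both. The medians over all genes were -0.15 in PA36 and -0.15 in PR36, and nothing is read from counts among 9 markers. The summed level of the list was 259 and 250 TPM in replicate 1 of PA36 and of PR36, against 383 and 360 TPM in replicate 2, with no marker at 0 in all 4 libraries. The part of blood cells in any lower gene was not tested.

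Some moved genes rested on listings at 0. Trpml, a lysosomal cation channel gene, had 11.04 and 12.9 TPM in replicate 1 of PA36 and of PR36 and was listed at 0 in replicate 2 of both. Its 11.6 and 12.0 TPM in (G4C2)36, beside 9.01 TPM with UPF1 RNAi, were like the levels of the high libraries. Polr3I, a subunit gene of RNA polymerase III, and CAH5, a carbonic anhydrase gene, were listed at 0 in replicate 1 of both genotypes, against 6.77 and 7.57 TPM for Polr3I and 16.6 and 5.88 TPM for CAH5 in replicate 2 of PA36 and of PR36. Both were also listed at 0 in (G4C2)36 replicate 2, with 8.29 TPM for Polr3I and 3.17 TPM for CAH5 in (G4C2)36 replicate 1.

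Of 32 cuticle protein genes tested, 2 were higher and 2 lower in both pairs, beside 0.657% higher and 0.646% lower over all genes. For this list and for the next 2, with 1 gene in each direction, the counts are small and nothing is read from them. Cpr72Ec, the most abundant of those 4, had 122 and 69.8 TPM in replicate 1 of PA36 and of PR36, against 258 and 196 TPM in replicate 2, with 75.97 and 52.9 TPM in (G4C2)36. Of 63 cytochrome P450 genes tested, Cyp12d1-p was higher, with 5.08 and 5.77 TPM in replicate 1, against 1.24 and 1.07 TPM in replicate 2, and Cyp4d21 was lower. Of 26 odorant-binding protein genes, Obp28a was higher, with 22.2 and 12.7 TPM in replicate 1, against 7.61 and 4.35 TPM in replicate 2. In the same list Obp99b was lower, with 14.4 and 11.4 TPM against 73.0 and 28.1 TPM.

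Other cell type markers were few among the moved genes. The fat body and yolk list summed to 77354 TPM in PA36 replicate 1 and 63499 TPM in PR36 replicate 1, against 39911 TPM in PA36 replicate 2 and 60202 TPM in PR36 replicate 2. Among its 12 tested members 0 moved in both pairs, and Lsp1gamma was listed at 0 throughout. Yp2, a yolk protein, had 22626 TPM in PA36 replicate 1 and 19582 TPM in PR36 replicate 1, against 7911 TPM in PA36 replicate 2 and 14806 TPM in PR36 replicate 2. Neuron and synapse genes had medians of -0.41 in PA36 and -0.10 in PR36, and cac, a calcium channel subunit, was the 1 of 18 that moved. It had 11.5 TPM in PA36 replicate 1 and 3.04 TPM in PR36 replicate 1, against 30.5 TPM in PA36 replicate 2 and 10.3 TPM in PR36 replicate 2. Of 10 glial, 19 photoreceptor and 18 muscle genes tested, 0 moved in both pairs. With 0.657% of all genes higher and 0.646% lower in both pairs, counts of 0 or 1 in these lists are near that background. Nothing is read from them. The muscle median was 0.41 in PA36 and -0.24 in PR36. Gut and ovary lists held few readable genes, 3 and 1 tested, with summed levels of at most 12.1 and 13.5 TPM in the 4 libraries. How these cell types bear on the heat shock genes was not tested.

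In 5 other stress lists, no gene tested passed 2-fold in both pairs. TotC, of the Turandot and JAK-STAT list, did and is given above. Of the 8 subunits of the cytosolic chaperonin TRiC, 17 genes of the endoplasmic reticulum stress response, 18 oxidative stress and glutathione transferase genes, 3 metal response genes and 14 hypoxia and glycolysis genes tested, 60 in all, 0 moved in both pairs. With 0.657% of all genes higher and 0.646% lower, a count of 0 is near that background and nothing is read from it. The glutathione transferase gene GstE4, not in these lists, was higher in both pairs. It had 4.74 and 1.58 TPM in replicate 1 of PA36 and of PR36, against 0.931 and 0.189 TPM in replicate 2. The TRiC medians were -0.24 in PA36 and -0.17 in PR36, and those of the endoplasmic reticulum list -0.22 and -0.14, close to the medians over all genes. Antimicrobial peptide genes (17 tested) also gave 0 in both pairs, and among them Def moved in opposite directions. In ubiquitin and autophagy genes 0 of 17 moved, and among the 84 cytosolic ribosomal protein genes 0 did.

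Clock genes cycle over the day, and the labels do not state the hour at which heads were collected. The clock repressor timeless (tim) had 9.72 and 13.6 TPM in replicate 1 of PA36 and of PR36, against 23.4 and 24.7 TPM in replicate 2, and vri, a clock repressor chosen after its values were seen, had 32.6 and 41.7 TPM against 19.5 and 18.9 TPM. The clock output gene takeout (to) had 49.8 and 38.5 TPM in replicate 1, against 95.2 and 70.7 TPM in replicate 2. For tim, vri and to the high and the low libraries did not overlap, in PA36 as in PR36, but none of the 3 reached 2-fold in both pairs. Within (G4C2)36 tim also differed, with 16.4 and 4.05 TPM. The median of the clock list was -0.11 in PA36 and -0.15 in PR36, close to that over all genes. Without overlap, 6.86% of all genes were higher and 35.3% lower in the high libraries (1572 and 1682 genes after median-of-ratios rescaling). The 1 of 12 clock genes that moved was sgg, a kinase with many other roles, with 16 and 18.2 TPM in replicate 1, against 45.9 and 40.7 TPM in replicate 2. Its (G4C2)36 levels of 38.2 and 65.6 TPM differed as well. The part of collection time was not tested.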

How the data were processed

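Heads of PA36, PR36, (G4C2)36 and UPF1 RNAi flies were sequenced. Per the submitters' processing notes, bcl2fastq, HISAT2 2.1 and HISAT were used with the genome build BDGP6. What computed the expression values, from which annotation, and whether by strand, is not given in the sources used here. A TPM table of 26309 transcripts was deposited by the authors, and its header has 10 names over lines of 11 cells. Names were read from the left and 1 unnamed column of values stayed unused, so every library assignment rests on that reading. Groups came from the labels' genotype, and no label says whether replicates are separate cohorts. Read depth cannot be recovered from TPM and is unknown, so counting intervals are left out. Since an exact 0 may come from a failed estimate, such genes are called listed at 0.

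Transcripts were summed to 13656 genes with Python 3.11.15, pandas 2.3.3 and numpy 2.4.6, and figures were drawn with matplotlib 3.10.9. Of the gene IDs, 13545 were named from the reference tables, and coordinates are 1-based BDGP6 positions from Ensembl release 115. Genes averaging 1 TPM or more over 7 libraries were compared as log2(TPM + 1), with a pseudocount of 1 TPM that understates differences of low genes. Steps were tested on simulated data. Because the libraries were chosen by their heat shock levels, no test was made. Members and lists (33 lists, 730 of 769 symbols matched) were chosen with earlier results of these data known. Genes to name were drawn from all members of the heat shock lists, up to 3 members of each other list, and genes past 4-fold in both pairs. The 12 leading genes outside the heat shock lists in each direction, with no 0 and at least 5 TPM on the higher side, were added. Not every gene drawn is described above. Past 4-fold and not described were kek3 (6.01 and 7.81 TPM in replicate 1 of PA36 and of PR36, against 0 and 0.818 TPM in replicate 2) and the snoRNA SC35-a (4.51 and 5.04 against 0.0422 and 0.0383 TPM). Alternatives changed the pseudocount, filter, scaling and fold, and left out each replicate. A planned search of promoters for heat shock elements was not made, since no promoter sequence was used here.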

Additional observations from a re-analysis of the deposited data

Results flagged for a closer look

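In 5 of 605 list genes tested (0.826%), the PA36 pair moved one way and the PR36 pair the opposite way, by 2-fold or more, between replicate 1 and replicate 2. Over all genes 86 (0.926%) moved in opposite directions, so the share in the lists is near that background. The difference between the genotypes was not tested. Def, which encodes the antimicrobial peptide defensin, had 71.1 TPM in PA36 replicate 1, against 5.73 TPM in PA36 replicate 2, a log2 difference of 3.42. In PR36 it had 20.01 TPM in replicate 1, against 68.2 TPM in replicate 2, a difference of -1.72. Among cuticle protein genes, Ccp84Ab differed by 1.06 in PA36 and -2.50 in PR36, Ccp84Aa by 1.34 and -1.64, and Cpr97Ea by 2.00 and -1.09. The odorant-binding protein gene Obp83b differed by 1.98 in PA36 and -1.13 in PR36. Of 32 cuticle genes tested, 11 were higher and 2 lower in PA36 replicate 1, whereas 2 were higher and 9 lower in PR36 replicate 1. Among the 9287 genes compared, PA36 replicate 1 had 3.31% higher and 3.99% lower, and PR36 replicate 1 had 2.65% and 3.84%.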

How the results depend on the processing

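The 15 higher heat shock genes kept differences of at least 1 on the log2 scale in 120 of 120 values recomputed under other pseudocounts and scalings. The counts over all genes, 61 higher and 60 lower in both pairs and 576 apart within (G4C2)36, moved more. A pseudocount of 5 TPM gave 35, 23 and 282, and one of 0.1 TPM gave 97 lower genes. A mean of at least 5 TPM gave 39 lower and 353 within (G4C2)36, by construction from fewer genes. A 1.5-fold limit gave 121, 190 and 1994, and a 4-fold limit 24, 11 and 190. Asking each high library to lie 2-fold from each low one gave 36 lower genes. Leaving out a replicate ends that genotype's pair, and the other pair alone gave 246 to 307 higher and 357 to 371 lower genes. Median-of-ratios rescaling brought the median differences to -0.00074 and -0.0060 and the counts to 71 higher and 43 lower. Genes that overlap no other gene, chosen after seeing the data, gave 30 and 24. Except by construction, the cause was not tested. For named genes and lists, 1077 of 1578 recomputed values lay within the spread of the 2 pairs and 501 moved further. A change of sign was counted only for values of at least 1 in size on the log2 scale, and 0 of those reversed. Sign changes of smaller values, such as most list medians, were not counted. No paired analysis was possible with the replicate number as a block, because replicate 1 and replicate 2 are themselves the sides of the contrast within each genotype and no test was made. The contrast is 1 library a side in each genotype, depth is unknown, and single transcripts of near-identical copies are uncertain.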
